A study of Gelatoporia subvermispora and Trametes versicolor with 24 samples.

Results

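Static cultures of the white-rot fungus Trametes versicolor were compared with agitated ones, with antioxidants in both. The 6 libraries were taken by their titles, 3 static and 3 agitated, out of 24 in the series, which also holds 6 T. versicolor libraries without antioxidants and libraries of a second fungus that were not used. The strain is labelled FP-10164. All cultures grew at 28 °C in 25 mL of a defined medium with 15 mM cellobiose, a glucose disaccharide from cellulose, and received 4-hydroxybenzoate, an aromatic acid of the kind released from lignin, at roughly 2 mM on day 6. The static cultures stood still, and the agitated ones were shaken at 220 rpm. The antioxidants of both groups were ascorbic acid (5 mM) together with 1 mM of α-tocopherol, given 30 min ahead of the aromatic acid. Mycelium was collected 24 h after it, on day 7. The 6 libraries without antioxidants, 3 static and 3 agitated, came from cultures treated alike except for these additions. No group lacked 4-hydroxybenzoate. Whether replicates were grown in separate flasks is not labelled, so p-values here reflect only how far these libraries vary, which may be technical.

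White-rot fungi are wood-decaying basidiomycetes that break down lignin with secreted oxidative enzymes, among them laccases and heme peroxidases, and take up the aromatic fragments. In shaken liquid culture filamentous fungi usually grow as pellets in aerated medium, while a standing culture forms a mat at the surface. Ascorbic acid is a water-soluble and α-tocopherol a lipid-soluble scavenger of oxidants. The deposited tables give each gene a running number and no name or product, so none of these enzymes could be looked up, and genes are described by how they responded.

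The static libraries with antioxidants held 4784617 to 5579448 reads in genes, and the agitated ones 5993709 to 6324260, so depth did not overlap between the groups. Static replicates correlated with each other across genes at 0.982 to 0.988 (log2 CPM, the read count of a gene scaled to the size of its library). Agitated replicates 2 and 3 correlated at 0.99, but replicate 1 correlated with them at 0.957 to 0.959. The first principal component of the 6 libraries held 63.7% of the variance and parted static from agitated cultures. The second, with 20.9%, parted agitated replicate 1 from replicates 2 and 3. That library therefore stands apart, and the counts of changed genes and the calls of named genes were also made without it. Of 14570 listed genes, 10505 had enough reads to be tested, and 1866 had no read in any of the 6 libraries.

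Static culture changed many of the tested genes, with a balance of rises and falls that depended on the scaling. At an adjusted p under 0.05 in edgeR's quasi-likelihood test, 2844 genes were called, 27.1% of the 10505. Of these, 1389 were higher in static culture (13.2%) and 1455 lower (13.9%). Upper-quartile scaling gave 1604 higher and 1275 lower, and library totals alone gave 1215 higher and 1527 lower, so the near-even split is not a result. Most changes were modest: the median log2 fold change, static over agitated, was 0.90 for the genes called higher and -0.94 for those called lower, and 1598 of the 2844 changed by less than 2-fold. In a pool of RNA from a whole mycelium, fewer hyphae expressing a gene and less RNA per hypha cannot be told apart. The 1389 genes called higher had a median level of 32, 33.5 and 31.5 CPM in the 3 static libraries, against 15.2, 17.2 and 16.7 CPM in the 3 agitated ones. The 1455 genes called lower had a median of 21.5, 19.3 and 22.1 CPM in static culture, against 45.9, 46.3 and 45.0 CPM in agitated culture. The static and agitated libraries did not overlap for 2794 of the 2844, beside 45.1% of all tested genes. The count was 1675 without static replicate 2 and 2853 without agitated replicate 1. Of these 2853 genes, 2273 were among the 2844.

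**Figure D1:**
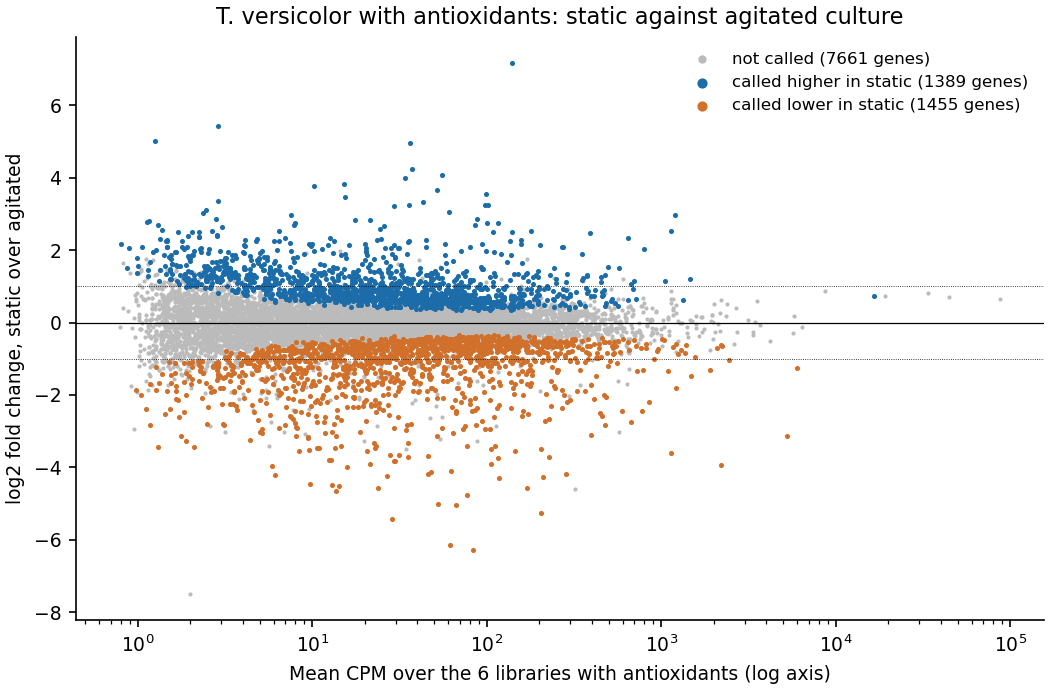
Each point is 1 of 10505 tested genes, with its mean level over the 6 libraries (CPM, log axis) and its log2 fold change, static over agitated, both with antioxidants. Blue points were called higher in static culture (1389 genes) and orange points lower (1455 genes), with 2-fold change marked by dotted lines, and 21 called genes lie at or beyond a 16-fold fall, against 6 at or beyond a 16-fold rise.

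The larger the change, the more often it was a fall. By at least 2-fold, 587 genes were higher and 659 lower in static culture. By at least 4-fold, 113 were higher and 201 lower, and by at least 8-fold, 21 were higher and 71 lower. At 16-fold or more, 6 were higher and 21 lower. Without agitated replicate 1, the counts at 4-fold were 137 higher and 203 lower, at 8-fold 33 higher and 74 lower, and at 16-fold 10 higher and 24 lower. A stricter test asked whether the change itself exceeded 2-fold (edgeR's glmTreat). It called 217 genes, 2.07% of those tested, of which 88 were higher and 129 lower. This count was 102 without static replicate 2, 118 without static replicate 1, 131 without static replicate 3 and 140 and 138 without agitated replicate 2 or 3. It was 242 without agitated replicate 1, 288 with only these 6 libraries fitted, 85 in limma-voom and 308 in limma-voom with library quality weights.

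Most tested genes were bounded near their level. For 5988 of 10505 genes the 95% interval of the fold change lay inside 2-fold either way, and 5359 of these were not called. A further 2302 genes were neither called nor bounded in this way. For these the libraries do not tell a change of 2-fold from none.

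The genes that changed at least 2-fold held a small part of the gene reads in one state and several times as much in the other. The 587 higher genes took 4.04% ± 0.251 of gene reads in static culture and 1.39% ± 0.039 in agitated culture (SD, n = 3 each). The 659 lower genes took 2.71% ± 0.253 in static culture and 9.62% ± 0.154 in agitated culture. These genes were called on the same libraries, so the shares are a description. The group means behind these fold changes did not use the libraries without antioxidants. Those libraries did enter the gene filter, the scaling and the estimate of the spread. In them the 587 genes took 4.22% ± 0.432 in static and 1.58% ± 0.233 in agitated culture. There the 659 genes took 2.92% ± 0.206 in static and 9.72% ± 1.51 in agitated culture. Counted outside the 6 most abundant genes, the 587 genes took 5.38% ± 0.26 in static and 1.64% ± 0.0647 in agitated culture with antioxidants, and the 659 genes 3.59% ± 0.253 in static and 11.4% ± 0.741 in agitated culture.

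**Figure D2:**
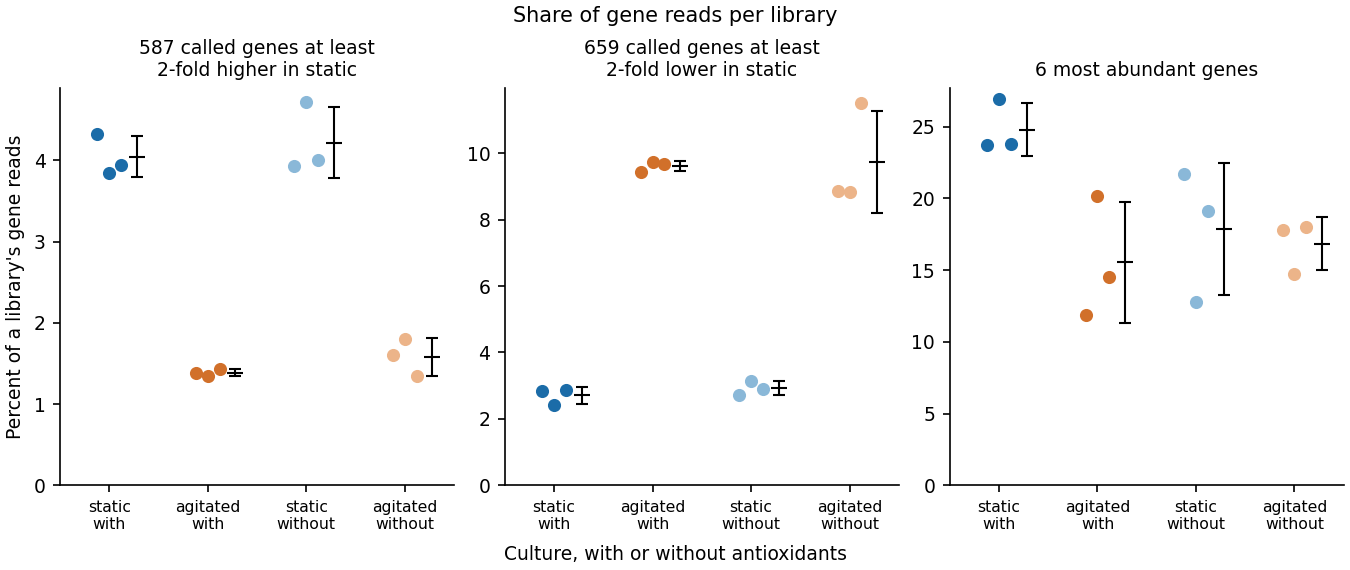
Points give the percentage of a library's gene reads, with bars for mean ± SD of 3 libraries, for static and agitated cultures with and without antioxidants, in 3 gene groups. The 587 rising genes stand at 3.85 to 4.33% in static and 1.35 to 1.43% in agitated cultures with antioxidants, the 659 falling genes at 2.41 to 2.86% and 9.44 to 9.73%, and the 6 most abundant genes at 23.7 to 26.9% and 11.9 to 20.2%.

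A handful of genes held much of every library, and their joint share differed between the groups. The 6 most abundant genes, gene14260 to gene14264 and gene14394, were singled out after their values were seen. The files do not say what they encode, and the libraries were made from total RNA, so it is not known here whether their reads are messenger RNA. Together they took 23.7, 26.9 and 23.8% of gene reads in static culture, against 11.9, 20.2 and 14.5% in agitated culture. All 3 static libraries were above all 3 agitated ones, and agitated replicate 1 was the lowest. Without antioxidants they took 21.7, 12.8 and 19.1% in static culture, against 17.8, 14.7 and 18% in agitated culture, and the groups overlapped. Taken singly, gene14260 passed the test (edgeR adjusted p = 0.049 at a log2 fold change of 0.72 with SE 0.25). The other 5 did not, with log2 fold changes of 0.65 to 0.88 and edgeR adjusted p-values of 0.059 to 0.11. Calls of abundant genes depended on the method: the genes called higher held 12.4% of static gene reads here and 35.7% by the DESeq2 test. Whether that test calls these 5 is not given here. The 10 most abundant genes of each library, whichever they were, took 26.9% ± 1.9 in static and 18.7% ± 4.08 in agitated culture (SD, n = 3 each). A two-sided exact permutation test of that difference gave p = 0.1, the smallest that 3 against 3 libraries allow. Reads outside genes moved the same way, at 14.8% ± 0.427 of all reads in static and 12% ± 1.22 in agitated libraries. So did unaligned reads, at 21.4% ± 0.796 in static and 16.6% ± 2.25 in agitated libraries. Their part in the results was not tested. Leaving the 6 genes out of the table, a choice made after seeing the data, gave 2826 called genes, of which 2803 were among the 2844.

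Calls were spread over all levels of expression, but falls weighed more among abundant genes. Among the 2101 most abundant tested genes, at 90.1 CPM and above, 231 were higher in static culture (11%) and 386 lower (18.4%). Among the 2101 least abundant, up to 4.71 CPM, the order was the opposite, with 228 higher (10.9%) and 130 lower (6.19%). Over all tested genes the shares were 13.2% and 13.9%. Without agitated replicate 1, the most abundant group had 11.7% higher and 17.9% lower, and the least abundant 8.7% and 6.02%. Other scalings, which move the balance of rises and falls, were not run for these groups. Among the 200 most abundant genes, those with a mean of at least 575 CPM, 14 were higher and 39 lower, or 7% and 19.5%. By at least 4-fold, 4 of them were higher and 7 lower, and 112 of the 200 had an interval inside 2-fold, or 56% beside 57% of all tested genes.

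Almost no gene went from under 1 CPM in one state to at least 8 CPM in the other. No gene averaged under 1 CPM in agitated culture and at least 8 CPM in static culture. The reverse held for 4 genes, which averaged 0.6 to 0.941 CPM in static culture and 10.4 to 18.6 CPM in agitated culture, with 9 to 14 reads over the 3 static libraries. Of these, 3 were called. No tested gene was without reads in all agitated libraries, and 1 was without reads in all static ones and was not called. These counts depend on the cuts. A called gene at 0.317, 0 and 0 CPM in agitated culture and 5.27, 6.87 and 4.79 CPM in static culture missed the cut of 8 CPM.

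The 6 genes that rose at least 16-fold were weakly read in agitated culture, at group means of 0.0529 to 6.22 CPM, against 2.45 to 277 CPM in static culture. The largest rise was that of gene10802. It stood at 348, 198 and 284 CPM in static replicates 1 to 3, against 3.01, 1.18 and 1.49 CPM in agitated ones. The lowest static library was far above the highest agitated one, and the agitated libraries held 7 to 19 reads (a log2 fold change of 7.16 with SE 0.43, edgeR adjusted p = 1.7e-06). Next among genes averaging a log2 CPM of at least 3 was gene5912, with 90.4, 37.7 and 83.8 CPM in static culture, against 2.38, 2.36 and 1.98 CPM in agitated culture (a log2 fold change of 4.97 with SE 0.67, edgeR adjusted p = 0.00085). In both genes static replicate 2 was the lowest of the static libraries, and the groups did not overlap. Both calls held in all 19 alternatives run, with log2 fold changes of 6.90 to 7.67 for gene10802 and 4.74 to 5.25 for gene5912 when a library was left out. The rise with the smallest error among the 6 was steadier, at 117, 83.6 and 115 CPM in static culture and 6.66, 5.56 and 6.45 CPM in agitated culture (a log2 fold change of 4.07 with SE 0.18, edgeR adjusted p = 3.2e-08).

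The strongest falls were less regular, and the agitated libraries differed among themselves. The largest among called genes was that of gene4099, at 2.95, 1.33 and 2.03 CPM in static culture, against 330, 140 and 21.5 CPM in agitated culture. The agitated libraries thus spread over more than a 10-fold range while the static ones held 6 to 14 reads (a log2 fold change of -6.27 with SE 1.69, edgeR adjusted p = 0.025). Its call was lost without any 1 of the 3 static libraries or agitated replicate 1 (edgeR adjusted p of 0.073, 0.087, 0.076 and 0.071), and without agitated replicate 1 the log2 fold change was -5.25. It was lost too in limma-voom, with an adjusted p of 0.13, or 0.066 with library quality weights. gene1249 had 0.843, 1.33 and 2.76 CPM in static culture, against 8.89, 164 and 190 CPM in agitated culture (a log2 fold change of -6.15 with SE 1.37, edgeR adjusted p = 0.011). Here agitated replicate 1 was the low one, and the static libraries held 4 to 15 reads. The call of gene1249 held without each library in turn but not in limma-voom (adjusted p = 0.081). Neither fall passed the stricter test against 2-fold (edgeR adjusted p of 0.17 and 0.077).

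The 21 falls of at least 16-fold had a median SE of 0.91 on the log2 scale. The fall with the smallest error among the 21 of at least 16-fold stood at 9.69, 5.76 and 15.7 CPM in static culture, against 436, 378 and 387 CPM in agitated culture (a log2 fold change of -5.25 with SE 0.29, edgeR adjusted p = 2.3e-07). Over the 21 genes the SE ran from 0.29 to 1.70, and 10 of them passed the stricter test. All 6 of the rises did, with SE from 0.18 to 0.93 and a median of 0.54. For the 21 falls the distance between the highest and lowest replicate had a median of 0.64 on the log2 scale in static culture and 1.79 in agitated culture. For genes not called, the corresponding medians were 0.36 and 0.50. A small count (a prior count of 2) was added before the logarithm, which narrows such distances at low levels. The 21 genes were low in static culture, with a median group level of 3.21 CPM, against 102 CPM in agitated culture. Agitated replicate 1 was the lowest agitated library for 12 of the 21 (57.1%) and the highest for 6 (28.6%). For these falls it therefore did not sit on the static side throughout. For the 6 rises of at least 16-fold it was on the static side, as the highest agitated library, in all 6 (100%). By at least 4-fold, it was the lowest for 52.7% of the falls and the highest for 44.2% of the rises. Among the 7661 genes not called it was the lowest for 41.9% and the highest for 44%, so it was often at an end there too. Of the 201 genes that fell at least 4-fold, 35 spanned 4-fold or more among the agitated replicates and 1 did so among the static ones. Among the 113 that rose at least 4-fold, 5 did so in agitated and 1 in static culture. Of the 7661 genes not called, 152 did so in agitated and 21 in static culture.

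**Figure D3:**
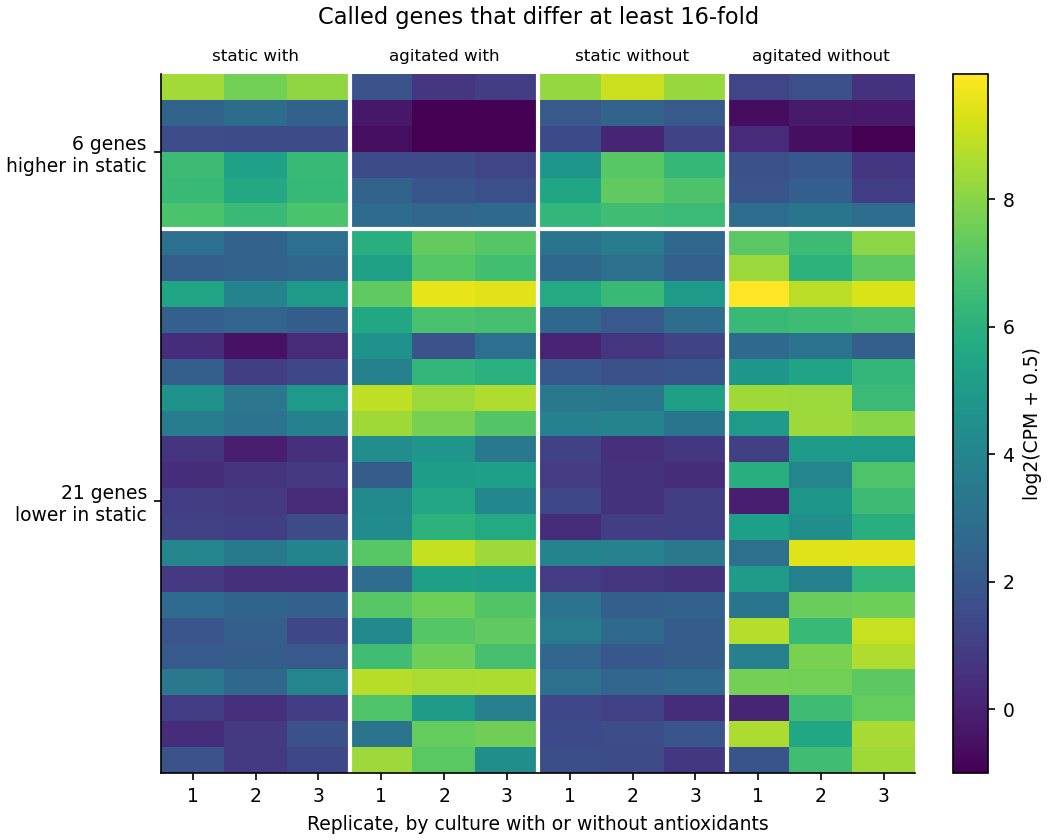
Rows are the 6 genes called higher and the 21 called lower in static culture by at least 16-fold with antioxidants, and columns are the 12 libraries, coloured by log2(CPM + 0.5). For the falling genes the static columns are more even than the agitated ones, and among agitated columns replicate 1 is darker than replicates 2 and 3 for some falling genes and brighter for others.

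The next question was where the static effect with antioxidants differed from that without them. The 2 comparisons share no library, although they share 1 gene filter, 1 scaling over all 12 libraries and 1 estimate of the spread. Without antioxidants 13.1% of the tested genes were called higher and 15.8% lower in static culture. Of the 113 genes that rose at least 4-fold with antioxidants, 107 were higher in static culture without them and 88 were called. All 201 that fell at least 4-fold were lower there, and 180 were called. The median log2 fold change of the 201 falls was -2.68 with antioxidants and -2.67 without. That of the 113 rises was 2.33 with antioxidants and 1.85 without. Since these genes were selected by their size in the first comparison, the smaller value in the second is not a result. The 16-fold genes were called in the same direction without antioxidants in all 6 rises and all 21 falls.

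Genes called in only one antioxidant state mostly leaned the same way in the other. There were 480 genes called higher with antioxidants only, at a median log2 fold change of 0.80 with and 0.37 without them, and 420 of the 480 kept the sign. Another 409 were called lower with antioxidants only, at medians of -0.76 with and -0.36 without, and 390 kept the sign. The static effects were shown to differ for 6 of the 480 and 1 of the 409. Of 479 genes called higher and 603 called lower without antioxidants only, 462 and 547 had the same sign with them, and the difference was called for 0 of either. Calls in opposite directions were made for 14 genes, all higher with antioxidants and lower without, and the difference was called for 7 of these.

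Tested directly, the static effect differed between the antioxidant states for 15 genes, 0.143% of the 10505 (edgeR adjusted p under 0.05 for the interaction term). At an unadjusted p under 0.05 there were 547, or 5.21% of the tested genes. The DESeq2 test called 62, limma-voom with library quality weights called 38, and 8 were called when replicate 3 of static culture lacking antioxidants was left out. For 56.2% of all tested genes the 95% interval of the difference lay inside 2-fold either way, and for the others the libraries do not bound the difference at 2-fold. The SE of the difference had a median of 0.31 on the log2 scale, against 0.22 for the static effect with antioxidants.

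Of the 15 genes, 14 had a more positive static effect with antioxidants, by 1.51 or more on the log2 scale. All 14 were called higher in static than in agitated culture with antioxidants. Without antioxidants 7 of them were called lower, 6 were not called and 1 was called higher. In 12 of the 14, all 3 static libraries with antioxidants were above all 9 other libraries, beside 2.48% of all tested genes. The interaction test chose the 14 on these same libraries, which favours such an order, so this is a description. Their median group level was 52.3 CPM in static cultures with antioxidants, against 17.1 CPM in agitated ones with antioxidants, 13.8 CPM in static ones without and 18 CPM in agitated ones without. The group is small and has no names, so nothing can be said of its products.

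The largest difference among the better-counted genes was that of gene4441. With antioxidants it had 25.7, 30.8 and 20.8 CPM in static culture, against 8.41, 14.8 and 15.9 CPM in agitated culture. Without them it had 1.71, 2.33 and 2.42 CPM in static culture, against 12.4, 23.2 and 9.71 CPM in agitated culture. It was thus high in 3 groups and low in static culture without antioxidants, where it had 6 to 16 reads. The static effect was 0.98 (log2, SE 0.31, edgeR adjusted p = 0.03) with antioxidants and -2.76 (SE 0.38, edgeR adjusted p = 0.00025) without. The difference was 3.74 (SE 0.49, edgeR adjusted p = 0.0053). The gene with the next number, looked at after its values were seen and below the abundance minimum for naming, was also lowest in static culture without antioxidants, but its static libraries with antioxidants stood above all agitated ones. It had 10.7, 17.1 and 8.29 CPM in static and 2.06, 4.38 and 3.97 CPM in agitated culture with antioxidants. Without them it had 0.856, 0.582 and 1.38 CPM in static and 5.62, 7.15 and 3.68 CPM in agitated culture. Its difference of 4.31 exceeded that of the other 14 called genes.

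The order of groups was similar for gene7578, which was less well counted than gene4441 but better than the gene numbered after it. With antioxidants it had 19, 27.7 and 21.9 CPM in static culture, against 4.44, 7.75 and 6.62 CPM in agitated culture. Without them it had 2, 1.89 and 1.73 CPM in static culture, against 5.48, 5.72 and 6.03 CPM in agitated culture. It was highest in static culture with antioxidants and lowest in static culture without, with the agitated groups between (difference 3.48, SE 0.35, edgeR adjusted p = 0.0011). The differences of gene4441 and gene7578 were called in all 24 alternatives run. In another of the 14, static culture with antioxidants stood alone, at 175, 196 and 185 CPM. Agitated culture with antioxidants had 21.3, 15.8 and 21.2 CPM, static culture without them 14.3, 17 and 15.2 CPM, and agitated culture without them 9.62, 31.5 and 11.1 CPM (difference 3.40, SE 0.50, edgeR adjusted p = 0.025).

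The single difference in the other direction was that of gene7615. With antioxidants it had 6.11, 4.21 and 5.71 CPM in static culture, against 11.9, 23.1 and 22.5 CPM in agitated culture. Without them it had 5.42, 5.24 and 8.65 CPM in static culture, against 4.14, 4.83 and 2.51 CPM in agitated culture. Agitated cultures with antioxidants were thus the only group above the rest (difference -2.59, SE 0.46, edgeR adjusted p = 0.044). This call was lost in 15 of 24 alternatives, among them 10 of the 12 that leave out a library, with the difference between -2.84 and -2.30 when a library was left out.

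**Figure D4:**
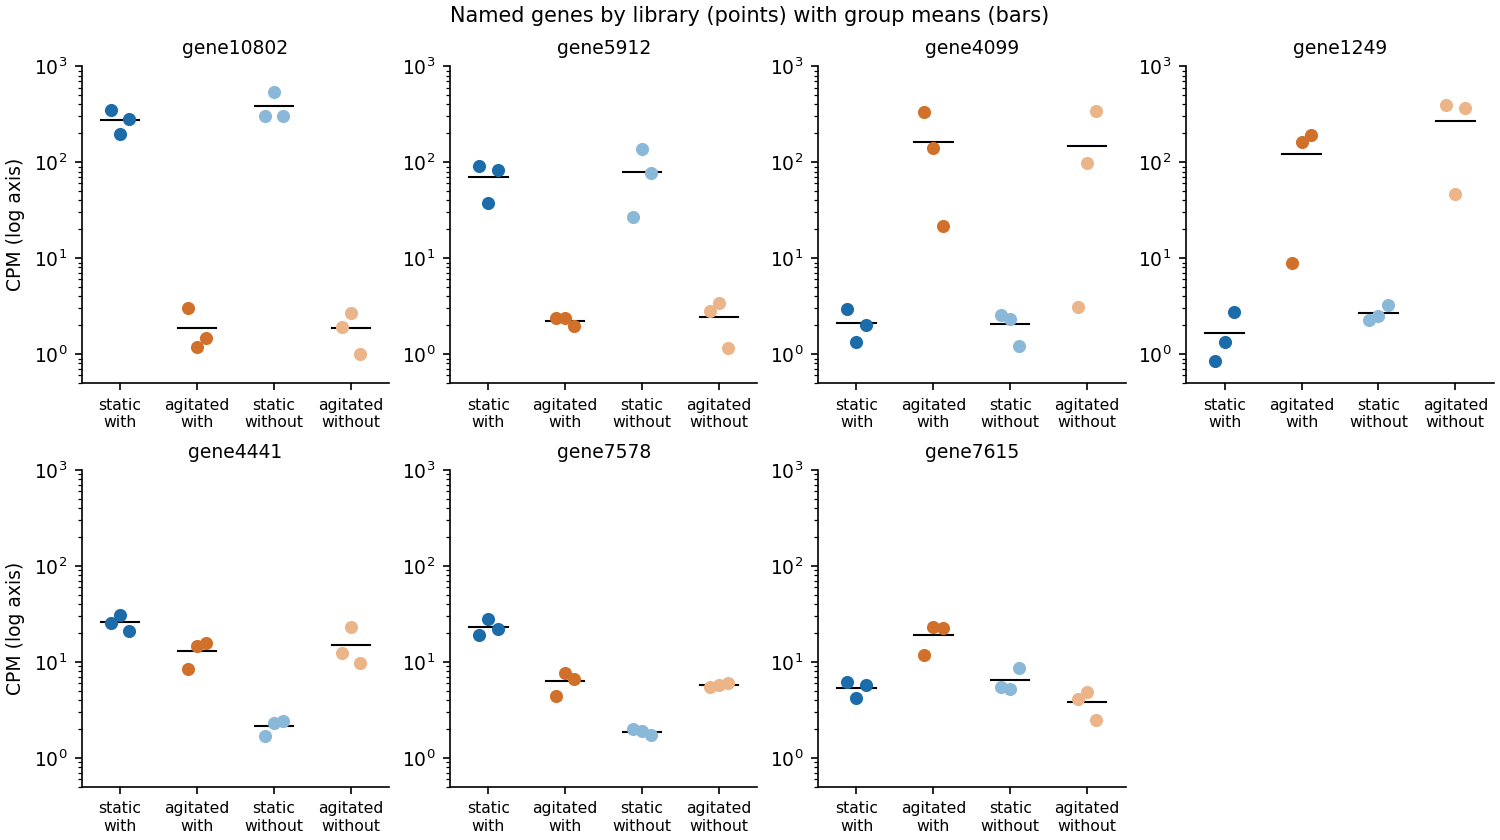
CPM (log axis) in each library for the 4 genes named for the static effect with antioxidants (first row) and the 3 named for the difference between antioxidant states (second row), in static and agitated cultures with and without antioxidants. gene10802 and gene5912 are high in both static groups, gene4099 and gene1249 are scattered in agitated groups, and gene4441 and gene7578 are lowest in static culture without antioxidants at 2.42 CPM or less.

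**Figure D5:**
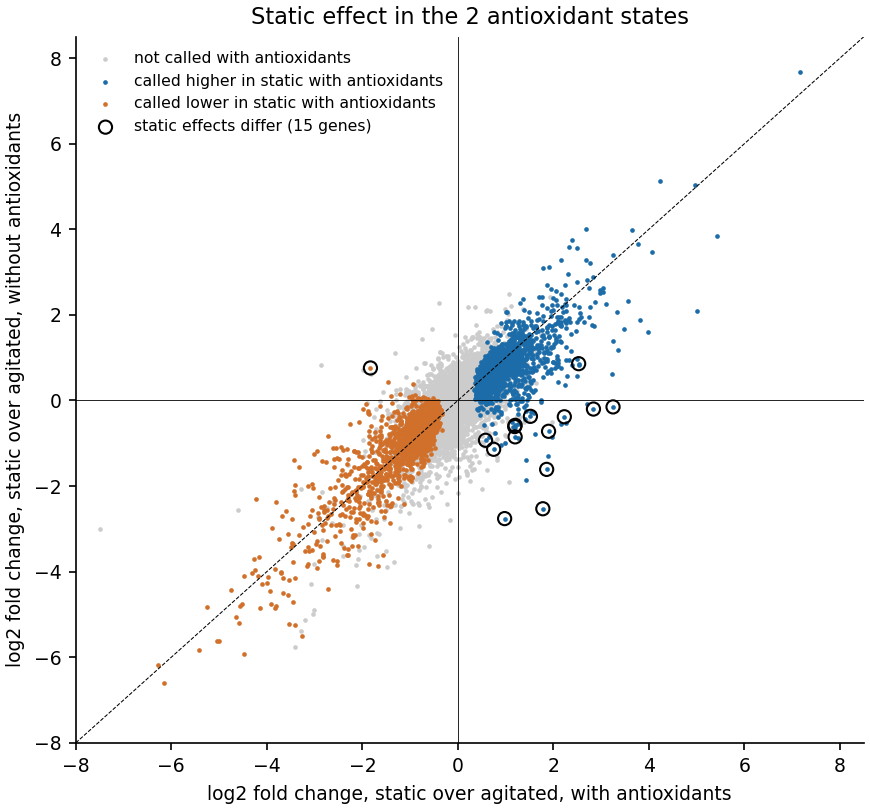
Each point is 1 of 10505 genes, with its log2 fold change, static over agitated, with antioxidants (x axis) and without them (y axis). Most called genes lie along the dashed line of equal effects, and the 15 circled genes, 14 of them below the line, have static effects that differ.

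Genes that responded alike tended to carry neighbouring numbers. The numbers are taken only as the order of the list, since no coordinates were used here. Of the 1171 genes called higher whose next number was tested, 216 were followed by a gene also called higher, or 18.4% beside 13.2% of all tested genes. Of the corresponding 1220 genes called lower, 251 were followed by another called lower, or 20.6% beside 13.9%. Neighbours with the opposite call were scarcer, at 9.56% after genes called higher and 9.02% after genes called lower. For the falls of at least 4-fold, 50 of 165 next numbers were also called lower, or 30.3%. For the rises of at least 4-fold, 19 of 93 next numbers were also called higher, or 20.4%, and 11.8% were called lower. Runs of at least 4 consecutive numbers called the same way numbered 4 among rises (17 genes) and 15 among falls (66 genes), and the longest of each held 5 genes. These shares and runs are a description without a test. The runs have no background count beside them, so the contrast of 4 with 15 is not a result. The counting's strand setting is not given in the sources used here, so reads of overlapping neighbours cannot be told apart.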

How the data were processed

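Each library has 1 deposited table of whole-number counts by gene, with no normalisation. HTSeq, Bowtie, Bowtie2 and FastQC appear in the submitters' processing notes, with neither version nor role. For build, annotation and strand setting the sources used here give nothing. Per the labels' protocols, libraries were made from total RNA with a stranded kit. Summary lines were dropped. In the 6 libraries with antioxidants they held 10.9 to 15.3% of reads outside genes, 0.369 to 0.964% ambiguous, 10.4 to 12.6% of low mapping quality and 14.4 to 22.3% unaligned. Genes with near-identical copies are uncertain.

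All 12 T. versicolor libraries were fitted in edgeR 4.0.16 (R 4.3.3) with filterByExpr, TMM scaling, 4 group means and robust quasi-likelihood tests, with 8 residual degrees of freedom and a biological coefficient of variation of 20.3%. p-values were adjusted by Benjamini-Hochberg over all 10505 genes. The SE comes from the fold change and the F statistic. limma 3.58.1 and DESeq2 1.42.0 gave alternatives. The test was checked on simulated counts. In the 2 groups with antioxidants no replicate pair agreed within sampling noise: chi-square per degree of freedom was 2.99 to 60. Pairs without antioxidants were not checked in this way. Since no file pairs numbers with names, a comparison names at most its 2 largest rises and 2 largest falls past the threshold of 0.05. They must not overlap between groups (not asked of the difference) and must average a log2 CPM of 3 or more. Members, lists and tests were chosen with earlier results of these data known.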

Additional observations from a re-analysis of the deposited data

Results flagged for a closer look

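The static effect differed between cultures with and without antioxidants for 15 genes by the interaction test. Among the named genes, the log2 difference, with minus without antioxidants, was 3.74 for gene4441 and 3.48 for gene7578, and it was -2.59 for gene7615, whose call was the least stable.

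Reads that entered no gene count also differed between the groups, with every static library above every agitated one. Reads outside genes made up 14.8% ± 0.427 of all reads in static and 12% ± 1.22 in agitated libraries with antioxidants (SD, n = 3 each). Unaligned reads made up 21.4% ± 0.796 in static and 16.6% ± 2.25 in agitated libraries. Ambiguous reads made up 0.943% ± 0.0228 in static and 0.65% ± 0.25 in agitated libraries. Reads of low mapping quality made up 12.6% ± 0.00978 in static and 11.4% ± 0.98 in agitated libraries. A two-sided exact permutation test gave p = 0.1 for each of these, the smallest that this design allows. Their part in the gene results was not tested.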

How the results depend on the processing

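The number of genes called between static and agitated culture with antioxidants was within 1.5 times of 2844 in 17 of 19 alternatives. It was 4548 in limma-voom with library quality weights and 1675 (without static replicate 2) to 2853 when a library was left out. With only the 6 libraries with antioxidants filtered, scaled and fitted, it was 2552, of which 2348 were among the 2844. The number past 2-fold was 85 in limma-voom and 102 (without static replicate 2) to 242 when a library was left out, against 217. With only the 6 libraries fitted it was 288, and in limma-voom with library quality weights 308. Genes with an interval inside 2-fold numbered 5171 to 5953 without a library. Genes called between cultures without antioxidants numbered 1987 (without static replicate 1) to 2838 when a library was left out, against 3037. The difference between antioxidant states was called for 62 genes by the DESeq2 test, 38 by limma-voom with library quality weights, and 8 (without static replicate 3 of the cultures lacking antioxidants) to 19 without a library. With the replicate number as a block, 2545 genes were called with antioxidants (2488 of them among the 2844) and 11 for the difference. The block fit gave gene4099 an adjusted p of 0.056 and gene7615 one of 0.11. For pairing, each gene's log2 CPM was taken as its distance from the mean of its group. On these distances same-number libraries of the 2 groups correlated at 0.08, 0.04 and 0, and other pairs at -0.08 to 0.06. With 3 libraries per group such values cannot settle whether the numbers pair them. Genes called higher held 12.4% of static gene reads, but 35.7% by the DESeq2 test, 9.60% with only the 6 libraries fitted, and 6.20 to 22.2% without a library. The 6 most abundant genes have edgeR adjusted p-values of 0.049 to 0.11, and the cause was not tested further. Genes called lower held 20.5% of agitated gene reads, 22.6% by the DESeq2 test and 13.8 to 19.9% without a library. The excess of reads in the 10 most abundant genes was 6.56 to 10.5 percentage points without a library. Scaling by library totals alone gave a median log2 fold change over all tested genes of -0.068 with antioxidants, 0.114 without them and -0.163 for the difference. Without antioxidants it put 59.1% of calls on the higher side, against 45.2%. Leaving out agitated replicate 1 gave 2-fold read shares of 4.04% static and 1.30% agitated for rises and 2.50% static and 9.43% agitated for falls. It gave 15 higher and 37 lower among the 200 most abundant genes, and like-called neighbours after 19% of rises and 21.6% of falls. With antioxidants the higher side held 44.3 to 55.7% under the scalings run, against 48.8%. Depth limits the genes under 1 CPM: the 4 that were low in static culture held 9 to 14 reads over its 3 libraries.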

Other observations

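The 201 genes that fell at least 4-fold in static culture with antioxidants were also read in the 6 agitated libraries one by one. Their median level was 28.2, 37.7 and 33.6 CPM in agitated replicates 1, 2 and 3 with antioxidants, and 27.2, 27.5 and 60 CPM in those without. Of the 201, 37 stood no higher than the highest of the 6 static libraries in agitated replicate 1 without antioxidants, 4 in replicate 2 and 2 in replicate 3. The libraries with antioxidants chose these genes, so their own counts are not set beside these. Among the 21 falls of at least 16-fold it held for 4 genes in replicate 1 without antioxidants and for none in replicates 2 and 3. The same was not counted over all tested genes, so such numbers may be usual for these libraries. In agitated replicates 1, 2 and 3 without antioxidants gene4099 stood at 3.11, 97.5 and 340 CPM and gene1249 at 394, 46.1 and 363 CPM. Replicate 1 with antioxidants was the highest agitated library of its group for gene4099 and the lowest for gene1249. Replicates of one group have no order, and why the agitated libraries differ was not tested.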
